A study of Bos taurus and Ovis aries and Capra hircus with 27 samples.

Results

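Kinesins of the goat were taken as the goat gene models, without a copy suffix, whose deposited protein holds the motif DLAGSE, the conserved switch stretch of the kinesin motor. There were 27 such models among the 22131 in the goat table, of which 18216 (82.3%) had a protein sequence that could be searched. Of the 1299 models with a copy suffix, 0 held the motif. Messenger RNA had been measured in heart, liver and kidney of several ruminants, and the groups used here were heart, liver and kidney of Capra hircus, with 3 libraries each. The animals were indigenous goats about 3 years old, untreated as far as the labels say. The study's methods describe its animals as unrelated adult females. The libraries were strand-specific, and the deposited values were log2(FPKM + 1), where FPKM is the number of fragments per kilobase of transcript, relative to all mapped fragments of the library. Nothing in the labels says whether libraries of the same number came from the same animal, so p-values measure the spread between these 3 samples per tissue.

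Kinesins are motors that hydrolyse ATP and walk along microtubules or shorten them. Kinesin-1 and kinesin-3 motors carry vesicles, organelles and proteins along the microtubules of non-dividing cells, and the families kinesin-5 and kinesin-6 act in the mitotic spindle and in cytokinesis. In every family the motor domain holds a nucleotide-binding loop (the P-loop) and switch stretches that sense the bound nucleotide, whereas the rest of the protein, which binds cargo or partners, differs between families.

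The sequences carried other marks of a kinesin motor that the choice of members had not used. A P-loop (G, any 4 residues, G, K, then S or T) stood before the motif in 26 of the 27 proteins, against a P-loop anywhere in 3.85% of all goat models with a protein. The other switch stretch (SSR, any residue, H) stood before the motif in 25 of the 27, against 0.780% of all models with a protein. GOAT_ENSBTAP00000023470 lacked both and GOAT_ENSP00000287152 lacked the switch stretch. The distance from P-loop to motif ranged from 138 to 248 residues, with a median of 150. The proteins were 278 to 1816 residues long with a median of 965, and 16 of them began with methionine, so that several models may not be complete at their start. The 27 genes lay on 27 different scaffolds.

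No symbol could be attached to these identifiers, so kinesin families were named only where a sequence mark allows it. GOAT_ENSBTAP00000033805, GOAT_ENSP00000286452 and GOAT_ENSP00000393379 had the P-loop GQTSSGKT of kinesin-1, with the tail motif IAKP, through which the kinesin-1 tail folds back on its motor, near the end of the protein. In 5 members the P-loop ended in GKS, the form of kinesin-3. GOAT_ENSP00000260731 held the BimC box, a phosphorylation site of kinesin-5 tails. GOAT_ENSP00000378356 had the longest stretch between P-loop and motif, 248 residues, as in kinesin-6 motors, which carry a long insert there. The other members are given by identifier.

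Over the motor stretch the members fell into 16 groups at 60% identity, with 11 members alone in theirs. The largest group held the 5 members with GKS and GOAT_ENSBTAP00000042732, a fragment of 278 residues that joined it at 60.2%. The kinesin-1 members formed a trio at 89.2% to 92.1% identity. GOAT_ENSP00000378533, GOAT_ENSBTAP00000004174 and GOAT_ENSBTAP00000025475 formed another, with the P-loop GQTGTGKT. GOAT_ENSP00000377934 paired with GOAT_ENSBTAP00000027236 at 64.4%, and GOAT_ENSBTAP00000042140 with GOAT_ENSP00000366181 at 68.7%. Values of members within a group are uncertain where reads could fall on either gene.

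**Figure D1:**
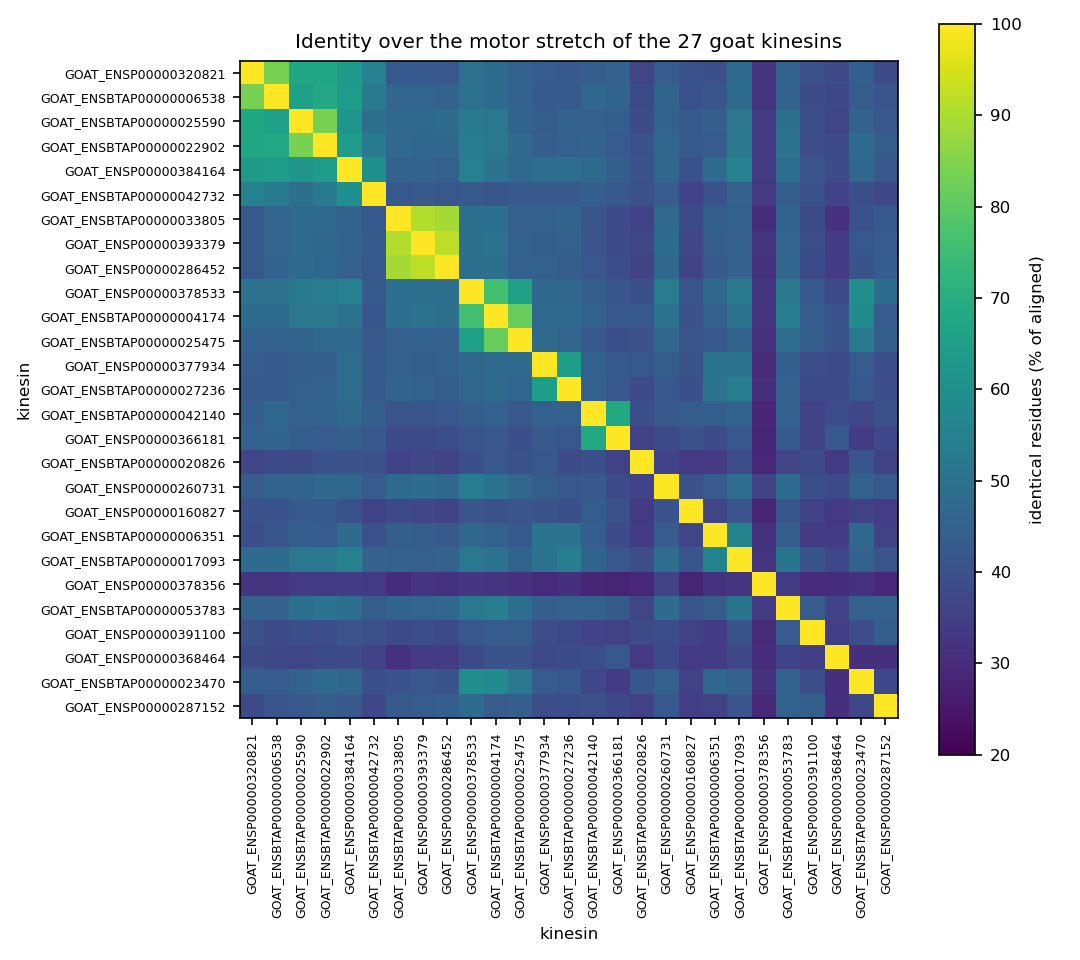
Percent identical residues over the aligned motor stretch for each pair of the 27 goat kinesins, which stand on both axes in the order of their motor groups. The bright blocks at the upper left are the group of 6, the kinesin-1 trio at 89.2% to 92.1% and the trio with P-loop GQTGTGKT. In the group of 6, 5 members have the kinesin-3 form and GOAT_ENSBTAP00000042732 does not.

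Most kinesins were measured at a low level, and a pair of them stood well above the rest. Averaged over the 9 libraries, 2 members were above 10 FPKM, 14 lay between 1 and 10 FPKM and 11 were below 1 FPKM. In total 10 members exceeded 0.5 FPKM in all 9 libraries, and none was at 0 in all of them. Members above 0.5 FPKM numbered 14 in each heart library, 12 in each liver library and 20 to 21 in the kidney libraries. The summed FPKM of the 27 members was 210 to 278 in heart, 66.5 to 97.0 in liver and 115 to 141 in kidney, without overlap between tissues. Without the pair of members highest on average the sums were 40.4 to 48.2 in heart, 35.4 to 46.0 in liver and 57.6 to 75.7 in kidney. As deposited, heart and liver then overlapped and kidney stayed above both. The order of tissues in both sets of sums is given for the deposited scale only. A scaling of libraries used below divides kidney by 1.29 to 1.51, heart by 0.774 to 0.941 and liver by 0.648 to 0.904.

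**Figure D2:**
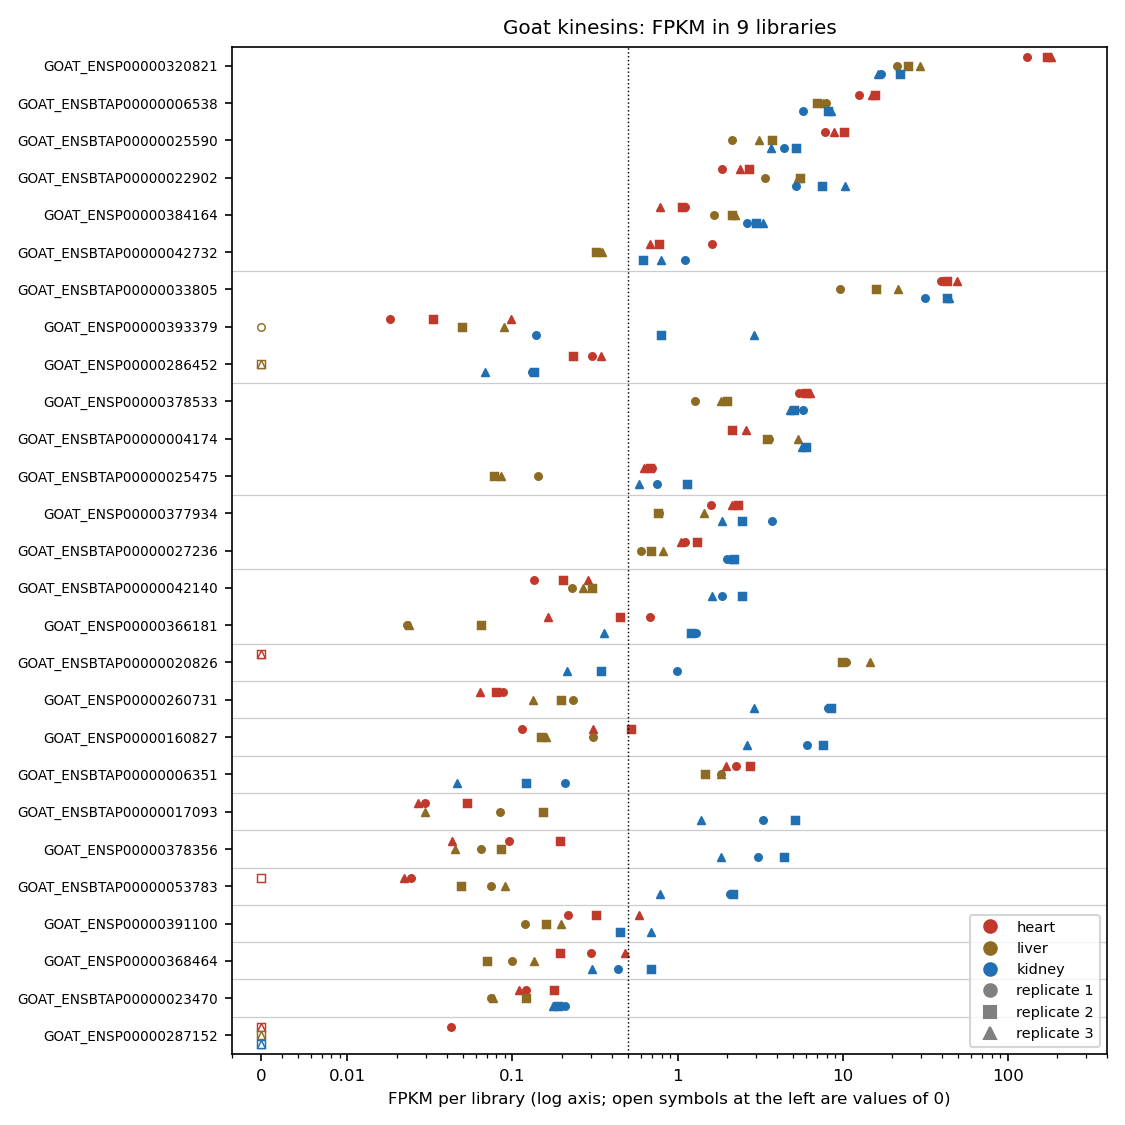
FPKM on a log axis for each of the 27 goat kinesins in 3 heart, 3 liver and 3 kidney libraries, 1 symbol per library, with grey lines between motor groups and a dotted line at 0.5 FPKM. GOAT_ENSP00000320821 in heart (130 to 184 FPKM) is the highest value, and several members near the foot stand above 0.5 FPKM in kidney alone.

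The 3 contrasts between tissues ask which genes differ in level between organs, and they share libraries pairwise. Of the 27 members, 21 exceeded 0.5 FPKM in at least 3 of the 9 libraries and were tested with limma among 13634 models. Between heart and liver 11 members passed an adjusted p of 0.05, 7 higher in heart and 4 higher in liver, against 49.2% of all tested models called (29.6% higher in heart and 19.6% higher in liver). Between heart and kidney 14 passed, 4 higher in heart and 10 in kidney, against 63.2% (17.9% and 45.3%). Between liver and kidney 15 passed, 2 higher in liver and 13 in kidney, against 65.0% (13.4% and 51.6%). As shares of the tested members these were 52.4%, 66.7% and 71.4%, close to the shares of all models.

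As deposited, the lean towards kidney was shared by the whole table. The median log2 fold change of the members was 0.29 for heart minus liver, −0.53 for heart minus kidney and −0.87 for liver minus kidney, and that of all tested models was 0.10, −0.55 and −0.69. After scaling each library by its median ratio, the medians of all models were −0.04, −0.04 and −0.01 and those of the members were 0.16, −0.15 and −0.38. The scaling divided the kidney libraries by 1.29 to 1.51, the heart libraries by 0.774 to 0.941 and the liver libraries by 0.648 to 0.904. Under it the called members split 6 to 4 between heart and liver, 6 to 9 between heart and kidney and 4 to 10 between liver and kidney, and under quantile normalization 9 to 4, 6 to 7 and 4 to 10. Of all tested models the median ratio scaling called 53.8% between heart and liver (27.0% higher in heart and 26.8% in liver), 58.0% between heart and kidney (29.0% and 29.1%) and 52.0% between liver and kidney (26.6% and 25.3%). Quantile normalization called 52.3% (29.5% higher in heart and 22.8% in liver), 58.0% (28.0% and 30.0%) and 53.2% (22.4% and 30.8%). The share of called members higher in heart over kidney was thus 28.6% as deposited, 40.0% after median ratio scaling and 46.2% after quantile normalization, against 28.3%, 49.9% and 48.3% of all called models. For liver over kidney it was 13.3%, 28.6% and 28.6%, against 20.6%, 51.2% and 42.1%.

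**Figure D3:**
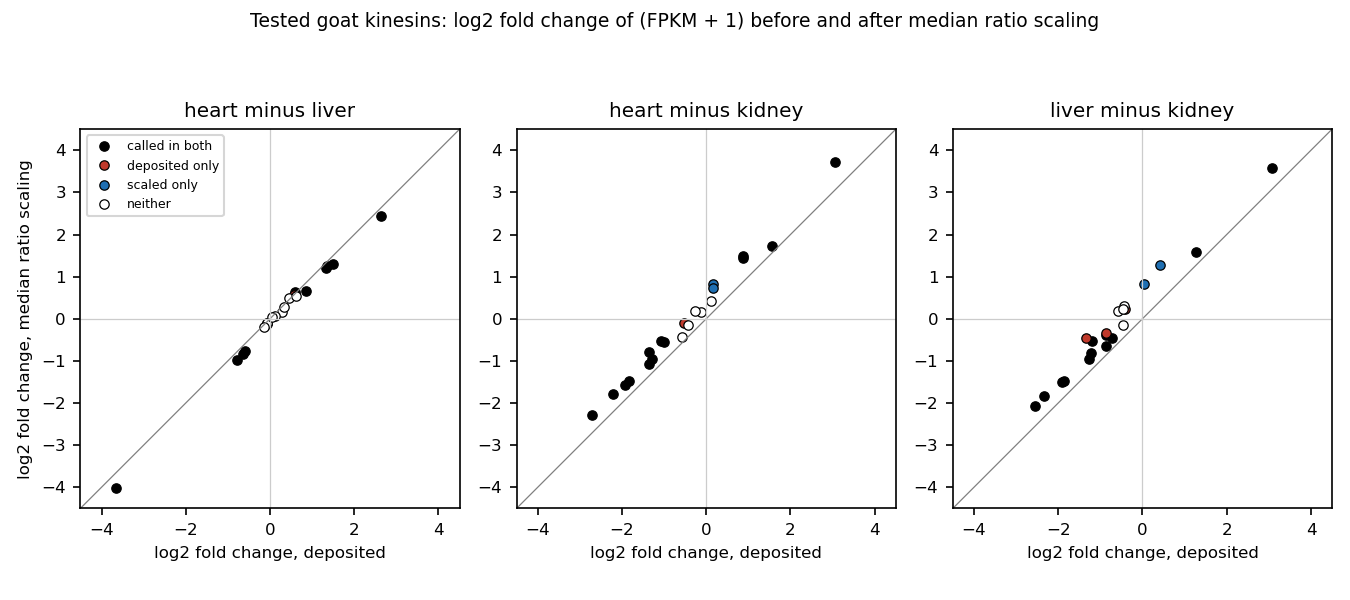
Log2 fold change of (FPKM + 1) for the 21 tested kinesins as deposited (horizontal axis) against the same after median ratio scaling (vertical axis), for the 3 contrasts, with colours showing where adjusted p was at or below 0.05. Points in the contrasts with kidney lie above the diagonal, and the liver minus kidney difference of GOAT_ENSP00000384164 changes sign from −0.41 to 0.23.

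Of the 21 tested members, 3 were higher in heart than in both other tissues, against 14.5% of all tested models. All 3 had the kinesin-3 P-loop, which was noticed in the values and is given as a description. After median ratio scaling 5 members of any form were, against 19.5%, the others being GOAT_ENSBTAP00000033805 and GOAT_ENSP00000378533. GOAT_ENSP00000320821 (949 residues, on scaffold 1377, positions 8931 to 27516) was the most abundant kinesin of the table on average. It reached 130, 172 and 184 FPKM in heart, 21.5, 24.8 and 29.4 in liver and 17.1, 22.2 and 16.5 in kidney. All heart libraries stood far above the others, while liver and kidney overlapped. The heart minus liver difference was 2.63 ± 0.21 (SE) on the log2(FPKM + 1) scale (limma, adjusted p = 6.95e-06) and the heart minus kidney difference 3.06 ± 0.21 (limma, adjusted p = 2.78e-06). It made up 61.9% to 66.2% of the summed kinesin FPKM in heart. Liver minus kidney was 0.42 and did not pass the test (limma, adjusted p = 0.109), but it did after median ratio scaling (limma, adjusted p = 9.04e-05).

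Its closest relative, GOAT_ENSBTAP00000006538 (1816 residues, 83.6% identical over the motor), followed the same order at a lower level. Its FPKM was 12.6, 15.6 and 15.1 in heart, 7.88, 7.02 and 7.62 in liver and 5.72, 8.16 and 8.45 in kidney. The heart libraries were above all others, by 0.86 ± 0.19 over liver and 0.88 ± 0.19 over kidney on the log2 scale (limma, adjusted p = 0.00467 and 0.00297). The call against liver was lost when all libraries were scaled to equal sums. GOAT_ENSBTAP00000025590 (1777 residues) had 7.84, 10.3 and 8.84 FPKM in heart, 2.14, 3.71 and 3.10 in liver and 4.44, 5.25 and 3.71 in kidney. Heart was higher than liver by 1.34 and than kidney by 0.87 (limma, adjusted p = 0.000592 and 0.00542).

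The motor most like it, GOAT_ENSBTAP00000022902 (83.9% identical), was lowest in heart. It measured 1.85, 2.71 and 2.39 FPKM in heart, 3.39, 5.56 and 5.34 in liver and 5.25, 7.49 and 10.3 in kidney. No heart library reached the lowest liver or kidney library. The differences were −0.78 ± 0.26 for heart minus liver and −1.36 ± 0.26 for heart minus kidney (limma, adjusted p = 0.0318 and 0.00153). The first was lost when heart 1, 2 or 3 or liver 2 or 3 was left out. GOAT_ENSP00000384164, the last member with GKS, had a similar order, with 1.11, 1.07 and 0.779 FPKM in heart, 1.67, 2.13 and 2.22 in liver and 2.63, 3.00 and 3.31 in kidney. Heart minus liver was −0.60 and heart minus kidney −1.01 (limma, adjusted p = 0.0123 and 0.000531). Without heart 3 the former was no longer called, and after quantile normalization the latter was −0.36 and was not called (limma, adjusted p = 0.078).

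GOAT_ENSP00000384164 was the only member called in all 3 contrasts, but its liver minus kidney difference of −0.41 (limma, adjusted p = 0.0499) lay at the threshold. It became 0.23 after median ratio scaling and 0.33 after quantile normalization, and with the replicate number as a block its adjusted p was 0.0613 (limma). Under that block GOAT_ENSBTAP00000022902 and GOAT_ENSBTAP00000025590 passed between liver and kidney (limma, adjusted p = 0.0209 and 0.0387), as did GOAT_ENSBTAP00000042732 (0.0464). The fragment GOAT_ENSBTAP00000042732 had 1.62, 0.771 and 0.685 FPKM in heart, 0.331, 0.322 and 0.348 in liver and 1.11, 0.616 and 0.798 in kidney. It was higher in heart than in liver by 0.57 (limma, adjusted p = 0.0338), a call lost under median ratio scaling, under equal sums and without heart 1 or any liver library.

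**Figure D4:**
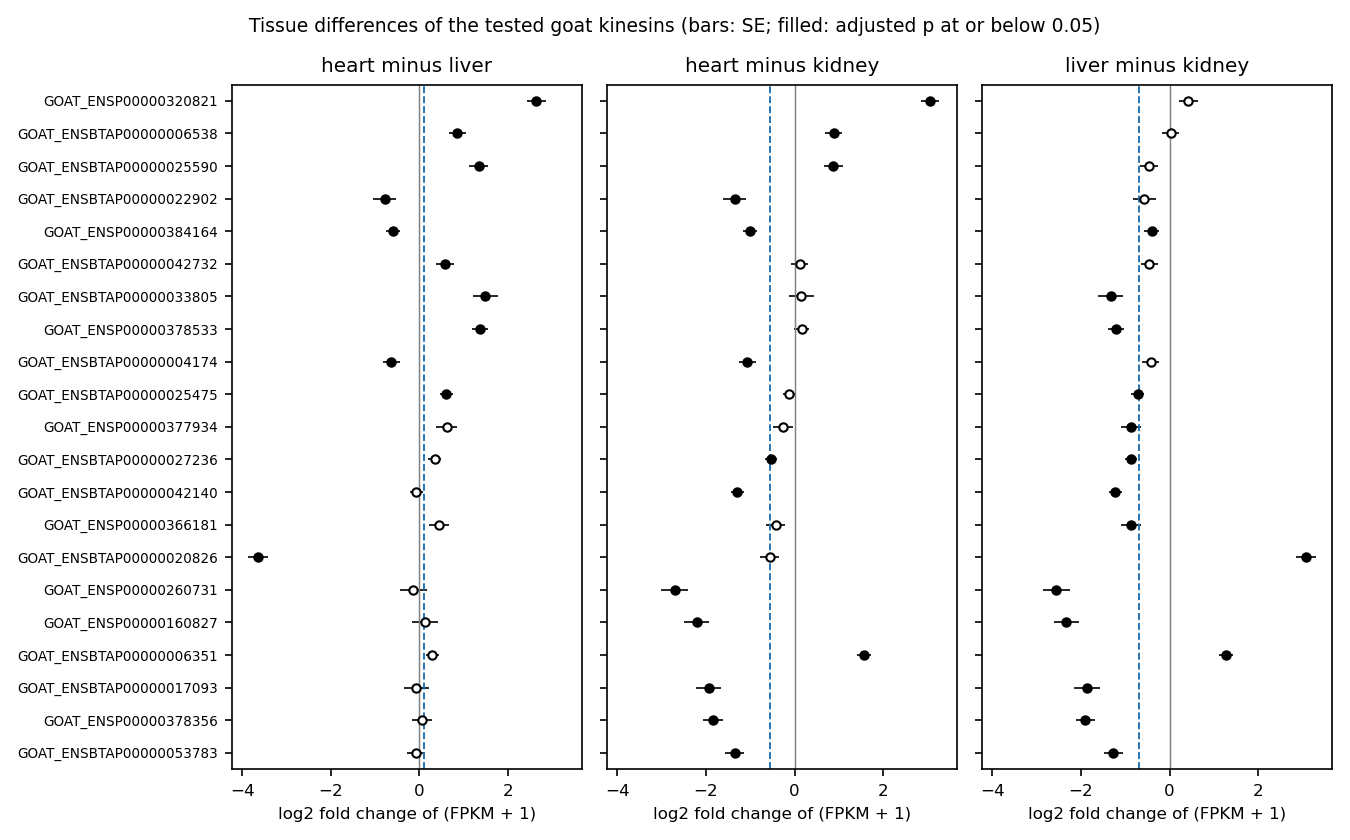
Log2 fold change of (FPKM + 1) with its standard error for the 21 tested kinesins in the contrasts heart minus liver, heart minus kidney and liver minus kidney, where filled points passed an adjusted p of 0.05 and the dashed line is the median of all tested models. GOAT_ENSP00000320821 stands at 2.63 and 3.06 in the contrasts with heart. GOAT_ENSBTAP00000020826, listed at 0 in all heart libraries, is plotted at a heart minus liver difference that the pseudocount sets.

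The kinesin-1 trio was carried by a single member. GOAT_ENSBTAP00000033805 (965 residues, scaffold 7, positions 310470 to 351256) had 39.7, 43.2 and 49.1 FPKM in heart, 9.66, 16.0 and 21.6 in liver and 31.7, 43.0 and 44.2 in kidney. Liver lay below both other tissues in every library, and heart and kidney overlapped. It was higher in heart than in liver by 1.49 ± 0.28 (limma, adjusted p = 0.00169) and its liver minus kidney difference was −1.33 ± 0.28 (limma, adjusted p = 0.00243). After median ratio scaling liver and kidney no longer differed at the threshold (limma, adjusted p = 0.0649), while heart passed over kidney by 0.83 (limma, adjusted p = 0.00487), so that the order of kidney rests on the scaling. This member was the second highest kinesin on average and supplied 27.7% to 37.4% of the summed kinesin FPKM in kidney, the largest part there.

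The other kinesin-1 members were low and did not pass the filter. GOAT_ENSP00000286452 had 0.305, 0.231 and 0.342 FPKM in heart and 0.131, 0.135 and 0.0685 in kidney, and was listed at 0 in all 3 liver libraries. GOAT_ENSP00000393379 had 0.0181, 0.0331 and 0.0984 FPKM in heart, 0, 0.0493 and 0.0885 in liver and 0.139, 0.789 and 2.91 in kidney. All kidney values of the latter were above the heart and liver values, but kidney 3 was far above the other kidney libraries. Their motors are 89.2% and 90.7% identical to that of the abundant member, and reads shared between these genes could not be checked. With no filter on low values, GOAT_ENSP00000286452 was called in all 3 contrasts (limma, adjusted p = 0.000516 for heart over liver, 0.00675 for heart over kidney and 0.0332 for kidney over liver), and GOAT_ENSP00000393379 in none.

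In the trio with P-loop GQTGTGKT, 2 members were lower in liver than in both other tissues and 1 was lower in heart. As counts over all members, 3 were lower in liver than in both others, against 17.3% of tested models, and 3 were lower in heart, against 11.3%. After median ratio scaling 2 were lower in liver, against 8.21%, and 3 in heart, against 12.1%. GOAT_ENSP00000378533 measured 5.41, 6.0 and 6.36 FPKM in heart, 1.28, 2.0 and 1.83 in liver and 5.75, 5.08 and 4.78 in kidney. Liver stood below the rest, with 1.36 ± 0.17 for heart minus liver and −1.21 ± 0.17 for liver minus kidney (limma, adjusted p = 0.000157 and 0.000289). Heart minus kidney was 0.16 (limma, adjusted p = 0.454) and passed only under the scalings by median ratio (limma, adjusted p = 0.00481) and by quantiles.

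GOAT_ENSBTAP00000025475 had liver lowest too, at a lower level, with 0.697, 0.684 and 0.626 FPKM in heart, 0.143, 0.0769 and 0.0847 in liver and 0.752, 1.15 and 0.582 in kidney. Heart minus liver was 0.60 and liver minus kidney −0.72 (limma, adjusted p = 0.00762 and 0.00215). GOAT_ENSBTAP00000004174, 81.4% identical to it over the motor, differed in order. Its FPKM was 2.12, 2.15 and 2.58 in heart, 3.58, 3.51 and 5.40 in liver and 5.90, 6.04 and 5.67 in kidney. Heart was lowest, with −0.64 for heart minus liver and −1.07 for heart minus kidney (limma, adjusted p = 0.018 and 0.000866). The former was lost without heart 1 or heart 2, and the latter after quantile normalization.

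In kidney, 8 members were higher than in both other tissues, against 34.2% of all tested models. After median ratio scaling 6 of them remained, against 16.6%, and those lost were GOAT_ENSBTAP00000027236 and GOAT_ENSP00000384164. The 6 that remained were low in heart and liver, at 0 to 0.519 FPKM in each library, and GOAT_ENSP00000260731, the kinesin-5, was the most abundant of them. They entered the test through the kidney libraries, where they are high, so their number is a description. With heart and liver this low, the pseudocount of 1 sets much of the size of their differences from kidney, which are no fold changes of FPKM. The filter of the study's methods asks for over 80% of libraries above 0.5 FPKM. Under it 2 members were higher in kidney than in both others, GOAT_ENSBTAP00000027236 and GOAT_ENSP00000384164, the same that median ratio scaling lost. None of the 6 that remained after scaling was tested under it. That filter tested 10 members and called 9, 7 and 5 of them in the contrasts heart minus liver, heart minus kidney and liver minus kidney, against 47.7%, 63.3% and 63.5% of 10180 models. Kinesin-5 motors push spindle poles apart in mitosis. GOAT_ENSP00000260731 measured 0.0878, 0.0791 and 0.0637 FPKM in heart, 0.232, 0.196 and 0.133 in liver and 8.15, 8.56 and 2.93 in kidney. Each kidney library was above all others, and the differences were −2.70 ± 0.30 for heart minus kidney and −2.56 ± 0.30 for liver minus kidney (limma, adjusted p = 6.02e-05 and 8.46e-05).

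GOAT_ENSP00000378356, with the long insert of kinesin-6, whose members act at the central spindle, had 0.0957, 0.194 and 0.0431 FPKM in heart, 0.0648, 0.0850 and 0.0451 in liver and 3.09, 4.42 and 1.83 in kidney. Its kidney libraries stood clear of the rest, with −1.84 ± 0.22 for heart minus kidney and −1.90 ± 0.22 for liver minus kidney (limma, adjusted p = 8.58e-05 and 7.15e-05). GOAT_ENSP00000160827 (644 residues) had 0.115, 0.519 and 0.309 FPKM in heart, 0.309, 0.149 and 0.160 in liver and 6.07, 7.57 and 2.65 in kidney. Kidney was again above both, with −2.21 for heart minus kidney and −2.33 for liver minus kidney (limma, adjusted p = 0.000162 and 0.000119).

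GOAT_ENSBTAP00000017093 (1237 residues) had 0.0293, 0.0530 and 0.0266 FPKM in heart, 0.0845, 0.154 and 0.0296 in liver and 3.28, 5.12 and 1.39 in kidney. The kidney libraries were again the highest, with −1.94 and −1.87 (limma, adjusted p = 0.000333 and 0.000419). GOAT_ENSBTAP00000053783 (1387 residues) had 0.0243, 0 and 0.0221 FPKM in heart, 0.0736, 0.0489 and 0.0905 in liver and 2.07, 2.17 and 0.785 in kidney, with differences of −1.35 and −1.27 (limma, adjusted p = 0.000459 and 0.000662). GOAT_ENSBTAP00000042140 (893 residues, P-loop GATGAGKT) had 0.135, 0.203 and 0.287 FPKM in heart, 0.229, 0.301 and 0.269 in liver and 1.87, 2.45 and 1.61 in kidney. Its differences were −1.29 and −1.22 (limma, adjusted p = 6.93e-05 and 9.81e-05). Kidney stood apart from heart and liver in each of these members. Heart minus liver passed in none of them, but their values there were 0 to 0.301 FPKM. With a pseudocount of 1 a difference at that level could hardly pass, so no likeness of heart and liver is read from it.

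The partner of that last member, GOAT_ENSP00000366181, had 0.676, 0.447 and 0.165 FPKM in heart, 0.0229, 0.0642 and 0.0234 in liver and 1.29, 1.21 and 0.358 in kidney. Heart and kidney overlapped and liver was lowest, and liver minus kidney was −0.88 ± 0.22 (limma, adjusted p = 0.00681). Without kidney 3 it also passed between heart and kidney. The other pair of motors was expressed more evenly. GOAT_ENSP00000377934 measured 1.60, 2.34 and 2.13 FPKM in heart, 0.773, 0.766 and 1.44 in liver and 3.75, 2.47 and 1.86 in kidney. GOAT_ENSBTAP00000027236 measured 1.11, 1.31 and 1.05 in heart, 0.598, 0.691 and 0.813 in liver and 1.98, 2.2 and 2.16 in kidney. Liver was lowest in both. For the former only liver minus kidney passed, at −0.88 (limma, adjusted p = 0.00822), and it did not after median ratio scaling (limma, adjusted p = 0.219). For GOAT_ENSBTAP00000027236 the heart minus kidney difference was −0.53 (limma, adjusted p = 0.00812), which was not called after median ratio scaling (limma, adjusted p = 0.503) and was 0.08 after quantile normalization. Its liver minus kidney difference was −0.87 (limma, adjusted p = 0.000517), and after quantile normalization it was −0.24 and was not called (limma, adjusted p = 0.154).

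Kidney 3 stood apart from the other kidney libraries in part of the members. In 4 of the 8 kidney-high members (GOAT_ENSP00000260731, GOAT_ENSP00000160827, GOAT_ENSBTAP00000017093 and GOAT_ENSBTAP00000053783) kidney 3 was below 0.5 times the lower of kidney 1 and kidney 2, which held for 3.26% of the 4669 models that were higher in kidney than in both other tissues. In 6 of the 8 kidney 3 was the lowest kidney library, against 34.4%. The drop was not limited to the kidney-high members. Kidney 3 was also below 0.5 times the lower of the others in GOAT_ENSP00000366181 and in GOAT_ENSBTAP00000006351, the latter lower in kidney than in both other tissues. This split was noticed in the values and is given as a description. Without kidney 3, 7 of these 8 kept their calls against both tissues, the loss being GOAT_ENSP00000384164 against liver. For the kinesin-5 heart minus kidney was then −3.12 and liver minus kidney −2.98.

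Values of cell division genes are given beside this. The 4 models with the mitotic cyclin motif were all higher in kidney than in heart and in liver, and their summed FPKM was 35.6 to 53.7 in kidney, 4.31 to 5.88 in heart and 2.11 to 4.03 in liver. In 2 of the 4, GOAT_ENSP00000256442 (15.2, 18.7 and 6.5 FPKM in the kidney libraries) and GOAT_ENSP00000274026 (11.4, 15.3 and 5.62), kidney 3 was below 0.5 times the lower of the others, whereas GOAT_ENSBTAP00000006943 was highest there (6.75, 16.6 and 31.4). After median ratio scaling the fourth, GOAT_ENSP00000365210, was not called against heart or liver (limma, adjusted p = 0.863 and 0.108). Of the 3 models with the PSTAIRE helix of cyclin-dependent kinases, 2 were higher in kidney than in heart and 1 than in liver. Beside both lists, 45.3% of all tested models were higher in kidney than in heart and 51.6% than in liver. After median ratio scaling these shares were 29.1% and 25.3%. GOAT_ENSP00000397973 had 10.2, 14.2 and 4.90 FPKM in kidney, and it was the only one of the 3 still called higher in kidney after median ratio scaling, when the other two were called higher in liver than in kidney (limma, adjusted p = 0.0372 and 0.0169). The part of these genes in the kinesin result was not tested, and in bulk tissue fewer cells of a type and less RNA per cell cannot be told apart.

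**Figure D5:**
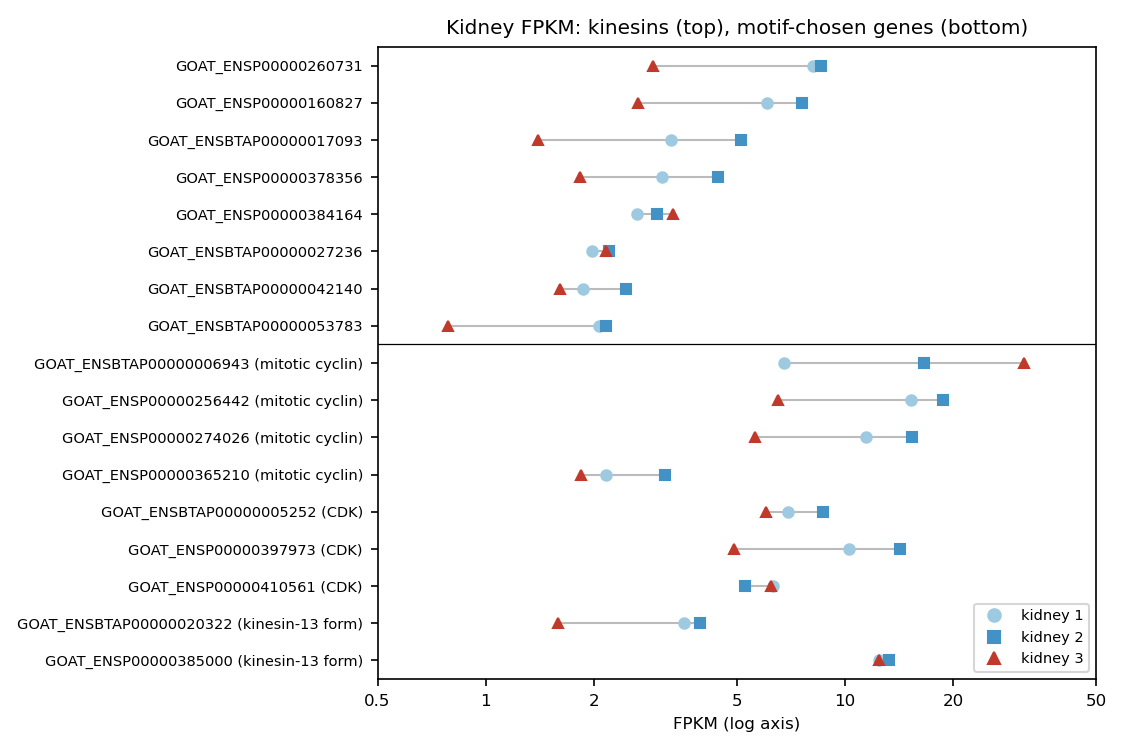
FPKM on a log axis in the 3 kidney libraries for the 8 kinesins higher in kidney than in both other tissues (upper part) and for models chosen by the motifs of mitotic cyclins, cyclin-dependent kinases and the kinesin-13 form (lower part), 1 symbol per library. Kidney 3 is the lowest in 6 of the 8 kinesins, and GOAT_ENSBTAP00000006943 has its highest value, 31.4 FPKM, in kidney 3.

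Only GOAT_ENSBTAP00000020826 (628 residues, scaffold 356, positions 2976522 to 2983962) was higher in liver than in both other tissues, against 9.59% of tested models, and it was also the only one after median ratio scaling, against 15.4%. It was listed at 0 in all 3 heart libraries and had 10.4, 9.92 and 14.7 FPKM in liver and 0.990, 0.342 and 0.213 in kidney. Every liver library was above every other library. This member passed the filter through the liver libraries, where it is high, so its calls are a description. The filter of the study's methods left it out, and 0 members were then higher in liver. Liver minus kidney was 3.08 ± 0.22 (limma, adjusted p = 3.73e-06). Heart minus liver also passed, and no fold is given against the values of 0. Heart minus kidney did not (limma, adjusted p = 0.0504). It was the third highest kinesin in liver, after GOAT_ENSP00000320821 and GOAT_ENSBTAP00000033805. Its motor was at most 42.1% identical to any other member.

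Only GOAT_ENSBTAP00000006351 (1673 residues) was lower in kidney than in both other tissues, against 4.15% of tested models. After median ratio scaling 3 were, against 11.8%, the others being GOAT_ENSP00000320821 and GOAT_ENSBTAP00000006538. Its FPKM was 2.26, 2.77 and 1.97 in heart, 1.84, 1.47 and 1.83 in liver and 0.207, 0.121 and 0.0463 in kidney. Kidney lay below all other libraries, by 1.56 ± 0.16 from heart and 1.27 ± 0.16 from liver (limma, adjusted p = 2.75e-05 and 0.000101). The closest motor, that of the kidney-high GOAT_ENSBTAP00000017093, is 56.0% identical to it and had the opposite order.

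Besides the low kinesin-1 members, 4 members did not pass the filter. GOAT_ENSP00000391100 ranged from 0.120 to 0.695 FPKM over the 9 libraries, GOAT_ENSP00000368464 from 0.0696 to 0.691 and GOAT_ENSBTAP00000023470 from 0.0743 to 0.207. GOAT_ENSP00000287152 was at 0.0422 FPKM in heart 1 and listed at 0 elsewhere. The first 3 had their lowest mean in liver. With no filter, when all 27 members were tested and 39.3%, 52.2% and 53.9% of 17285 models were called in the contrasts heart with liver, heart with kidney and liver with kidney, these 3 were lower in liver than in kidney (limma, adjusted p = 0.0143, 0.0127 and 0.0469). Their differences there were −0.40, −0.42 and −0.13 on the log2(FPKM + 1) scale, and they were called in no other contrast.

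Other motors were found by their own motifs. Of the 3 models of the kinesin-13 form, which shortens microtubules and has DLAGNE in place of the motif, both tested models were higher in kidney than in heart and liver. GOAT_ENSP00000385000 had 12.4, 13.2 and 12.4 FPKM in kidney, and its differences were −1.33 for heart minus kidney and −1.49 for liver minus kidney (limma, adjusted p = 0.000599 and 0.000306). GOAT_ENSBTAP00000020322 had 3.56, 3.95 and 1.59 in kidney and 0 to 0.156 elsewhere. Of the 21 models with the myosin P-loop GESGAGKT, the actin motors, 14 were tested, with 3 higher in heart and 5 in liver, 2 in heart and 6 in kidney, and 3 in liver and 6 in kidney in the respective contrasts. Of 12 dynein heavy chains, the microtubule motors that walk the opposite way to most kinesins, 2 were tested. Of these, 1 was higher in heart than in liver, 1 higher in heart than in kidney and 1 higher in kidney than in liver. Of all tested models, 29.6% were higher in heart and 19.6% in liver, 17.9% in heart and 45.3% in kidney, and 13.4% in liver and 51.6% in kidney.

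The heart and liver labels were set beside values of such models, which were chosen after the values were seen. The myosin model GOAT_ENSP00000386041, picked from 21, had 922, 524 and 434 FPKM in heart and at most 0.00867 in any other library. Of the 14 tested myosins, 3 were higher in heart and 5 in liver, and 2 in heart and 6 in kidney. This model is therefore no independent check of the heart label. The 15 cytochrome P450 models summed to 1417 to 3864 FPKM in liver and to 25.9 to 66.1 in the other libraries. A single model, GOAT_ENSBTAP00000024437, had 2502, 1312 and 1116 FPKM of this in the liver libraries. Of the 10 tested P450 models, 2 were higher in heart and 8 in liver, and 7 in liver and 1 in kidney. The sum is therefore no independent check of the liver label. The kidney label was not checked by a marker.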

How the data were processed

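The authors deposited a goat table of log2(FPKM + 1) per gene model and library. According to the study's methods, goat reads were aligned to the assembly CHIR_1.0 by TopHat and FPKM values were made with Cufflinks (version 2.2.1 in the submitters' processing notes, which name UMD3.1 as build). The deposited protein file, whose headers give scaffold positions, names no build. Groups and numbers came from sample titles, and the heart columns, which carry other names than the labels, were matched by title. The paper notes that the records used here for goat heart have duplicates elsewhere that stand for the same samples. It gives no such note for goat liver or kidney. Whether the heart libraries were made or sequenced apart from the others is not stated. Such a difference could not be told apart from the tissue. The members and lists were chosen with earlier results of these data known.

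The log was undone (base 2, minus 1) to give FPKM. Models above 0.5 FPKM in at least 3 of 9 libraries were tested on the deposited scale (pseudocount 1) with limma 3.58.1 in R 4.3.3, with a mean per tissue and a trend of variance with mean, and p-values were adjusted per contrast over all tested models by the method of Benjamini and Hochberg. The test was checked on simulated data. Motor stretches (170 residues before the motif and 110 from it) were aligned with mafft 7.526, and pairs with 60% identity or more were joined into groups. Members named were to be the largest called changes and the highest levels, and all 27 are given. The planned lists by gene symbol (kinesin families, pathway genes and cell type markers) were not used, since no symbol could be matched, and the motif lists for cyclins, kinases, kinesin-13, myosins, dyneins and cytochrome P450 replaced them after the values were seen. The files hold no counts, so depth per library is unknown. Between replicates the most frequent log2 ratio of values below 0.3 FPKM was −0.19 to 0.15, a rough sign of similar depth. A value of 0 can be a failed estimate.

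Deviations from the tissue means correlated at 0.146 to 0.472 in the 9 pairs of libraries with the same number and at −0.417 to 0.134 in the 18 pairs with different numbers, so a fit with the number as a block was run beside the unblocked fit, from which all p-values come unless the block is named. The pairing comes from this check and not from the labels. Alternatives were the pseudocount, filters, scalings, a replicate block, the trend, a minimum change and leaving out each library.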

Additional observations from a re-analysis of the deposited data

How the results depend on the processing

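Of the 40 called differences of single members, 28 kept their direction and their side of the threshold under every alternative that could test them. This leaves the minimum change aside, and with it 23 did. Both counts include the kidney calls of the 6 members still higher in kidney after median ratio scaling, and the liver calls of GOAT_ENSBTAP00000020826. These members passed the filter through the tissue where they are high, and the filter of the study's methods could not test them. Their part in the counts is a description. A minimum log2 fold change of 1 left 5, 11 and 10 members called in heart minus liver, heart minus kidney and liver minus kidney, and 1 higher in heart than in both other tissues. The stricter filter of the study's methods (the same 0.5 FPKM, in over 80% of libraries) tests only 10 members. It left 9 called between heart and liver, 7 between heart and kidney and 5 between liver and kidney. Under it 2 were higher in kidney than in both others, the same 2 that median ratio scaling lost, and 0 higher in liver. Under median ratio scaling and under quantile normalization 5 members were higher in heart than in both others, in place of 3. Signs reversed for GOAT_ENSBTAP00000027236 in heart minus kidney (0.078 under quantile normalization) and for GOAT_ENSP00000384164 in liver minus kidney (0.23 under median ratio scaling and 0.33 under quantile normalization). Leaving out 1 library at a time gave 8 to 13 called members between heart and liver, 14 to 16 between heart and kidney and 14 to 16 between liver and kidney, with 3 higher in heart and 1 in liver each time and 7 to 9 in kidney. With the replicate block, 11, 14 and 17 members were called in the 3 contrasts, and apart from the 4 liver minus kidney calls given with their values no call changed. Apart from the filters, whose construction leaves fewer models, the cause of these changes was not tested. Requiring a P-loop, or including models with a copy suffix, could change no count. The only member without a P-loop was not tested, and no model with a copy suffix held the motif. Naming members by best protein hits was not run, for want of a protein table. With no filter all 6 low members were tested and 4 were called in at least 1 contrast. Depth is unknown and limits what can be read from these members.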
